A study of Arabidopsis thaliana with 24 samples.

Results

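Unexposed rosettes of 2 Arabidopsis thaliana accessions, Te and C24, were compared gene by gene. The comparison rests on 6 of the 24 libraries of the series, 3 per accession, which their labels give as untreated controls. The series describes C24 and Te as accessions that differ in their sensitivity to ozone and set out to profile their ozone response, so these libraries give the state of each accession without ozone. No ozone library enters any value below, except in 1 alternative fit that used all 24 libraries.

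The C24 group and the Te group were whole rosettes of 3-week-old plants grown in soil under 12 h of light. Neither group carried a transgene or a named mutation, and neither received a treatment. Per the labels, the RNA of the 3 biological replicates came from pooled rosettes, 10 to 15 per genotype. The label on growth gives fewer plants per genotype than that, which the labels do not explain. A pool gives the mean of its plants. Whether each RNA replicate had a pool of its own is not stated, so p-values measure the spread between these RNA samples, which may be in part technical. Each accession is a natural inbred line, so a difference between the groups can sit at any of the loci at which these lines differ. Col-0, the line behind the reference genome, and a line labelled CT101 were grown and sequenced alongside, and their untreated libraries serve here only as levels to read beside those of Te and C24.

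Plants sense pathogens in 2 layers. Receptors at the cell surface recognise molecules shared by many microbes, and receptors inside the cell, most of them nucleotide-binding leucine-rich repeat (NLR) proteins, recognise single pathogen proteins or the damage these cause. Both layers feed the hormone salicylic acid, which in Arabidopsis is made mainly through isochorismate and which turns on the pathogenesis-related (PR) genes. Arabidopsis accessions are known to differ in their sets of NLR genes, in their glucosinolates, which are sulfur-containing defence compounds, and in the genes that set flowering time.

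The libraries held 16501289 to 18060471 counts for C24 and 18866314 to 21222973 counts for Te. Library totals were thus somewhat higher in Te. The first principal component took 84.3% of the variance and separated the accessions. The second took 6.23%, and on it replicate 1 of each accession lay at 25.6 and 27.3, apart from the other 4 libraries at −16.9 to −7.1. Across genes, log2 CPM correlated at 0.984 or more within an accession and at 0.902 or less between them. Levels are given as CPM, counts per 1000000 scaled by TMM factors, which correct for a few very abundant genes, and they are compared between lines and never between genes. All 279 organelle loci had no count in any of the 6 libraries. Of the 8 rosette leaf markers, all were well detected. The summed level of 18 flower, pollen and seed markers was 1.58 to 1.92 CPM in C24 and 1.21 to 1.94 CPM in Te, with 4 of them at 0 in all libraries. The summed level of 18 root markers was 118 to 138 CPM in C24 and 104 to 127 CPM in Te, with 5 at 0 in all libraries. Of the 4 root markers that were tested, 1 was called, the transcription factor gene SHR, which is also expressed in shoots and was lower in Te.

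Of 32678 loci, 19145 had enough counts to be tested. At an adjusted p under 0.05 in edgeR's quasi-likelihood test, 6834 genes differed between the accessions, which is 35.7% of the genes tested. Te was higher for 3112 genes (16.3%) and lower for 3722 (19.4%). The call was reached together with a difference of at least 2-fold for 856 genes higher in Te (4.47%) and 1691 lower in Te (8.83%). The 3 libraries of Te did not overlap the 3 of C24 for 9369 genes (48.9%), a number that also holds many small differences. Genes lower in Te outnumbered those higher at each size of difference, with 321 higher and 785 lower at 4-fold or more, 190 higher and 452 lower at 8-fold or more, and 111 higher and 167 lower at 32-fold or more. The median difference over all tested genes was −0.02 on the log2 scale, and 8574 genes had an unadjusted p under 0.05. The share of genes called ran from 34.1% to 37.0% over the 5 chromosomes. With library totals in place of TMM factors, 26.9% of the calls were higher in Te, against 45.5% in the main fit. Reads were counted on the TAIR10 genome of Col-0, so for every gene below, fewer transcripts cannot be told apart from fewer aligned reads where a line's sequence is missing or diverged. In whole rosettes, fewer cells of a type and less RNA per cell cannot be told apart either.

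**Figure D1:**
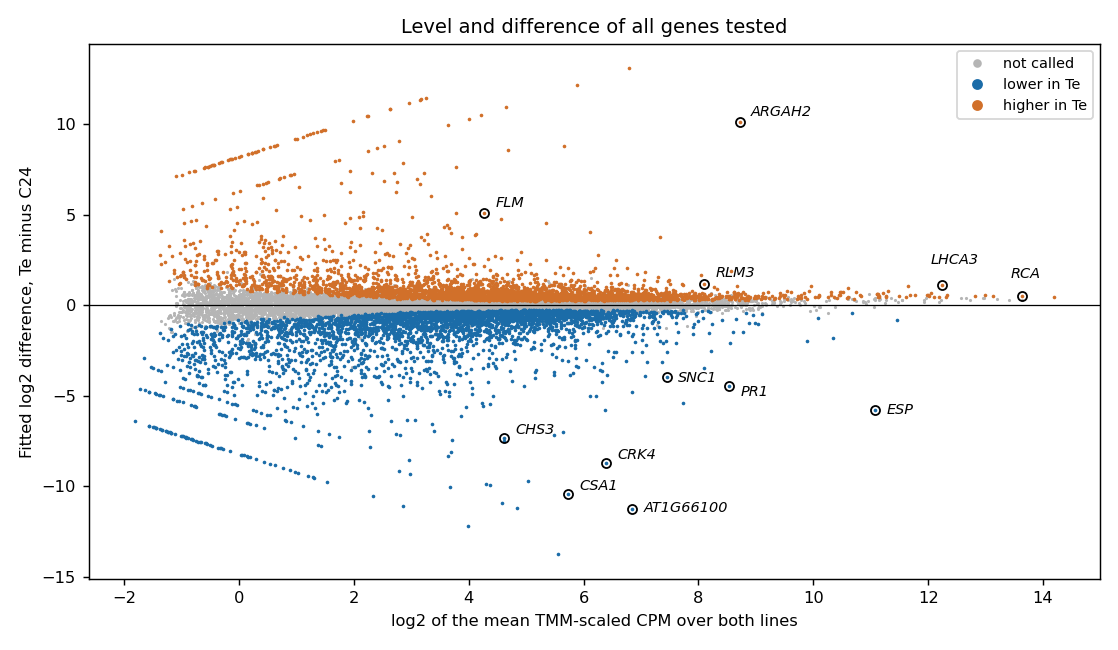
Each point is 1 of the 19145 tested genes, with the log2 of its mean level over both accessions on the x axis and the fitted log2 difference, Te minus C24, on the y axis. Grey genes were not called, orange genes were higher in Te and blue genes lower. Circled genes other than RCA are described in the text. The call of RCA was lost over 24 libraries (edgeR quasi-likelihood adjusted p = 0.063) and without C24 replicate 2 or 3 or Te replicate 1 or 2. ARGAH2 stands far above zero and CSA1, CRK4 and ESP far below.

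The salicylic acid pathway was lower in Te at most of its steps. Of 27 genes of synthesis and signalling, 22 were lower and 1 was higher, with a median difference of −1.41 on the log2 scale, against 19.4% lower, 16.3% higher and a median of −0.02 over all genes tested. Of 17 genes of salicylic acid output and systemic acquired resistance, 14 were lower and 1 was higher, with a median of −3.11. The lower genes included ICS1 in synthesis, the receptor gene NPR3, and DMR6 and DLO1, whose products inactivate the hormone.

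Among the output genes, PR1, the classic marker of salicylic acid action, read at 439, 697 and 986 CPM in the C24 libraries and at 12.3, 50.01 and 32.95 CPM in the Te libraries. The lowest C24 library was well above the highest Te library, although both groups were spread widely. The log2 difference was −4.48 ± 0.61 (SE, n = 3 per line; edgeR quasi-likelihood adjusted p = 0.0025). PR2, a secreted beta-1,3-glucanase, had 489, 432 and 580 CPM in C24 and 30.5, 53.7 and 51.3 CPM in Te, and PR5, a thaumatin-like protein, had 284, 257 and 350 CPM against 29.8, 42.0 and 31.7 CPM. Neither overlapped between the lines, and their log2 differences were −3.47 ± 0.23 and −3.11 ± 0.17 (SE; adjusted p = 6.2e-06 and 1.3e-06). FMO1 and ALD1 make N-hydroxypipecolic acid and its precursor, the mobile signal of systemic acquired resistance. FMO1 averaged 11.7 ± 2.73 CPM (SD, n = 3) in C24 and 0.502 ± 0.41 CPM in Te, and ALD1 averaged 9.52 ± 3.63 CPM and 0.632 ± 0.784 CPM. The lipid transfer protein gene EARLI1 differed by −4.36 on the log2 scale and LURP1, named for its response to an oomycete, by −2.05, with mean levels of 600 CPM in C24 and 145 CPM in Te. The camalexin synthesis genes CYP71A13 and PAD3 were lower by −3.63 and −2.95. AIG1, a gene induced by bacterial avirulence, went the other way, from 5.33 CPM in C24 to 15.2 CPM in Te (log2 difference 1.505), but lost its call in the fits over 12 and 24 libraries (adjusted p = 0.17 and 0.086).

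For synthesis, ICS1, the isochorismate synthase that makes most pathogen-induced salicylic acid, had 70.2, 66.7 and 67.2 CPM in C24 and 25.9, 26.9 and 23.9 CPM in Te. The libraries of each line lay close together and far from the other line, with a log2 difference of −1.41 ± 0.09 (SE; adjusted p = 3.0e-06). Its paralogue ICS2 was the 1 gene of the list higher in Te, at 1.62, 0.971 and 0.989 CPM in C24 and 6.67, 3.503 and 4.24 CPM in Te (2.02 ± 0.31 SE; adjusted p = 0.00083). PBS3, which joins isochorismate to glutamate, was lower by −1.62, and EDS5, which exports isochorismate from the chloroplast, by −1.67. EDS5 overlaps a gene on the other strand by 213 bases. Since the strand setting of the counting is not stated, its reads in that stretch cannot be told from that gene's. CBP60G and SARD1 encode the transcription factors that switch on ICS1. CBP60G had 42.5, 35.9 and 30.5 CPM in C24 and 4.98, 4.47 and 4.79 CPM in Te (−2.93 on the log2 scale), and SARD1 was lower by −2.17. EPS1, which completes the pathway from isochorismate, did not pass the test (10.7 ± 1.41 CPM in C24 and 9.93 ± 0.894 CPM in Te, SD, n = 3; adjusted p = 0.60). PAL1, the entry enzyme of the phenylpropanoid route to salicylic acid, had 110 ± 9.89 and 111 ± 19.7 CPM (adjusted p = 0.95), and both genes overlapped between the lines.

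For perception and control, the lipase-like partners EDS1 and PAD4, which relay NLR signals, had mean levels of 63.1 and 72.9 CPM in C24 and 28.2 and 21.7 CPM in Te, with log2 differences of −1.16 and −1.75. The salicylic acid receptor gene NPR3 was lower by −0.99 and NPR1 by −0.80, NPR1 with a 38-base overlap with a gene on the other strand. NDR1, a membrane protein needed by another class of NLR receptors, was lower by −1.47. DMR6 and DLO1 encode hydroxylases that inactivate salicylic acid and are themselves induced by it. DMR6 had 219, 285 and 233 CPM in C24 and 23.2, 28.1 and 32.8 CPM in Te (−3.13 ± 0.16 SE; adjusted p = 7.8e-07), and DLO1 averaged 59.4 CPM and 2.76 CPM. ACD6, an ankyrin protein that raises salicylic acid and is known to vary between accessions, had 330, 365 and 253 CPM in C24 and 69.1, 68.2 and 88.6 CPM in Te. Its lines did not overlap and it differed by −2.07 ± 0.16 (SE; adjusted p = 1.2e-05). WRKY70, a regulator that favours salicylic acid over jasmonate responses, had 164, 255 and 127 CPM in C24 and 75.6, 66.3 and 90.4 CPM in Te. Its log2 difference of −1.23 ± 0.24 (SE) was called in the main fit (adjusted p = 0.0048) but not with the replicate block (adjusted p = 0.14). The 4 genes of the list that did not pass were EPS1, PAL1, TGA2 and TGA6, the last 2 encoding partners of NPR1 that bind DNA, with log2 values of −0.07 and 0.22.

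**Figure D2:**
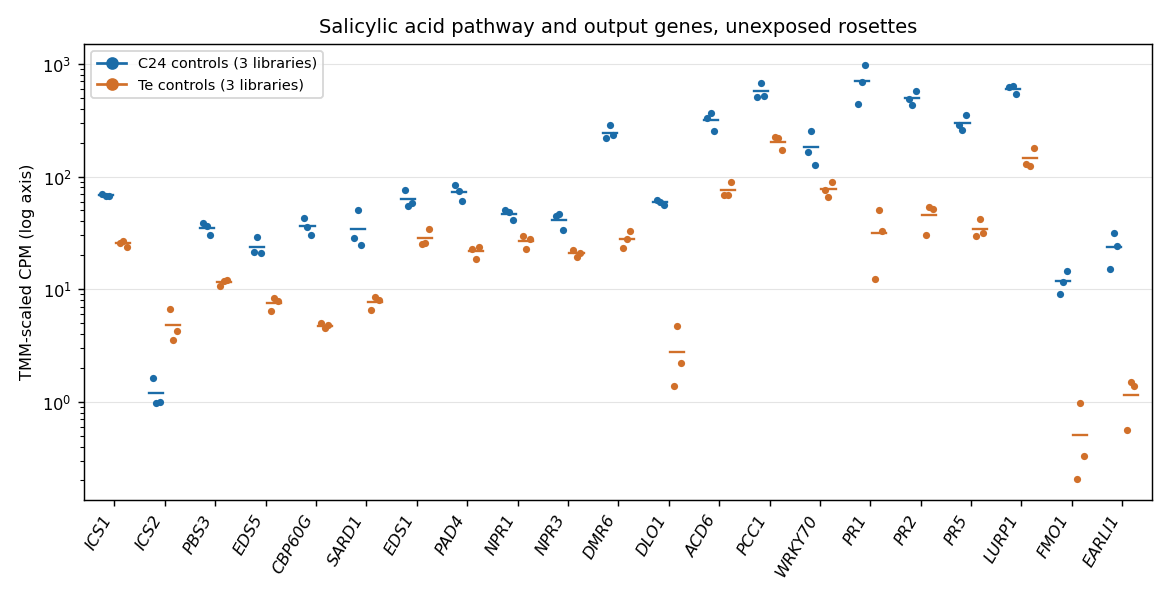
Levels of 21 genes of salicylic acid synthesis, control and output in TMM-scaled CPM on a log axis. Points are single libraries, 3 per line, and short bars their means. All genes shown except ICS2 lie lower in Te, with PR1, FMO1 and DLO1 spread over the widest distance between the lines.

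Immune receptor genes were mostly lower in Te as well. Of 124 tested genes annotated as NLR immune receptors, 84 were lower in Te (67.7%) and 18 were higher (14.5%), with a median of −0.92. Over all genes tested, 19.4% were lower and 16.3% higher. Of 32 tested genes in the list of studied resistance genes, 23 were lower and 5 higher, with a median of −0.66. Several genes were near the detection limit in one line and well expressed in the other, in both directions. Reads that near-identical copies in these clusters share were not measured.

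CSA1 and CHS3 are neighbours on chromosome 5 that encode a pair of NLR receptors acting together. CSA1 (chr5:5908874-5913099, minus strand, TAIR10) had 106, 101.2 and 110 CPM in C24 and 0.0513, 0.162 and 0 CPM in Te, which is 5752 counts against 4. Only Te was near zero, with a log2 difference of −10.41 (edgeR quasi-likelihood adjusted p = 1.6e-08). Col-0 averaged 22.1 CPM in a separate scaling of the 12 control libraries that all Col-0 and CT101 levels below share. CHS3 (chr5:5916970-5923355, plus strand) had 44.7, 46.9 and 55.0 CPM in C24 and 0.462, 0.323 and 0.110 CPM in Te (−7.31 on the log2 scale), and Col-0 had 35.2 CPM. The helper NLR gene ADR1, whose product works with EDS1 and PAD4, had 24.1, 28.8 and 20.4 CPM against 0.821, 1.02 and 0.827 CPM (−4.77). RPP1, which recognises a downy mildew protein, averaged 162 ± 8.49 CPM in C24 and 22.0 ± 4.79 CPM in Te (SD, n = 3). An unnamed TIR-type receptor gene, AT1G63880, averaged 48.9 CPM in C24 and 0.266 CPM in Te, and another next to the RPP1 group, AT3G44670, differed by −3.42.

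RPM1 showed the opposite pattern. RPM1 (chr3:2225952-2229024, minus strand) encodes a receptor for bacterial effectors and is known to be absent from some accessions. It had 0, 0 and 0.055 CPM in C24, a single count, and 15.0, 12.4 and 14.1 CPM in Te, 779 counts. The ratio of levels was 755 with a 95% Poisson interval from 135 to 29848, which covers counting error only, and Col-0 had 11.8 CPM. AT4G36140, a TIR-type NLR gene, had 1.32, 1.23 and 1.15 CPM in C24 and 27.5, 22.0 and 22.8 CPM in Te (log2 difference 4.28). AT1G58602, at the RPP7 locus, averaged 28.2 CPM and 118 CPM (log2 difference 2.07), but it shares 4572 bases with another gene on its own strand. SUMM2, which monitors a kinase cascade, was higher by 0.74. RLM3, a shorter TIR-type gene known for resistance to fungi, had 169, 169 and 166 CPM in C24 and 384, 368 and 388 CPM in Te, with no overlap and a log2 difference of 1.18 ± 0.10 (SE; adjusted p = 1.4e-05).

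Some neighbouring genes were called in the same direction. There were 91 runs of 4 or more neighbouring tested genes all called in one direction, 67 lower and 24 higher in Te, holding 410 genes. Untested loci between them were skipped. How many runs would arise from the shares called alone, 19.4% lower and 16.3% higher, was not tested. The longest run had 12 genes, and it was the array of cysteine-rich receptor-like kinases from CRK5 to CRK16 with EP1 (chr4:12117541-12161954), all lower in Te with a median of −1.40. Within it CRK7 differed most, at 38.4 ± 2.96 CPM in C24 and 2.06 ± 0.892 CPM in Te (SD, n = 3), and CRK10 least, at 76.8 and 48.5 CPM (log2 difference −0.66). The RPP5 cluster gave a run of 11 genes from RPP4 to AT4G16970 (chr4:9488466-9555784), all lower with a median of −2.69. SNC1 lies inside it, an NLR gene whose overactivity is known to raise salicylic acid and stunt growth. SNC1 (chr4:9500506-9505455, minus strand) had 367, 308 and 311 CPM in C24 and 22.7, 19.5 and 22.4 CPM in Te, with Col-0 at 170 CPM. The groups were far apart, with a log2 difference of −3.93 ± 0.13 (SE). RPP5 differed by −2.01 and RPP4, at one end of the run, by −0.54, while AT4G16892 differed by −6.53 and AT4G16930 had no count in Te. The run ended at AT4G16980, which did not pass the test at 337 and 309 CPM (−0.12; adjusted p = 0.38), and the next tested gene, RLM3, was higher in Te.

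Other runs lower in Te held 4 berberine-bridge-like oxidase genes from AT1G26380 to AT1G26420 (median −3.89), 6 genes from AT1G61410 to AT1G61460, most of them lectin receptor kinases (median −2.34), and 5 genes with a shared domain of unknown function from AT1G13470 to AT1G13550 (median −2.98). Of the ends of these runs, AT1G13470 lost its call in the fits over 12 and 24 libraries (adjusted p = 0.29 and 0.15) and AT1G61460 without Te replicate 2 or 3 (adjusted p = 0.054 and 0.051). The longest run higher in Te had 7 genes, from AT5G17090 to ENH1 (chr5:5621249-5651158), with a median of 2.00. Its first 4 members were annotated as cystatin or monellin superfamily genes, and ENH1, a rubredoxin family gene of the chloroplast, had 213, 178 and 168 CPM in C24 and 303, 305 and 297 CPM in Te.

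**Figure D3:**
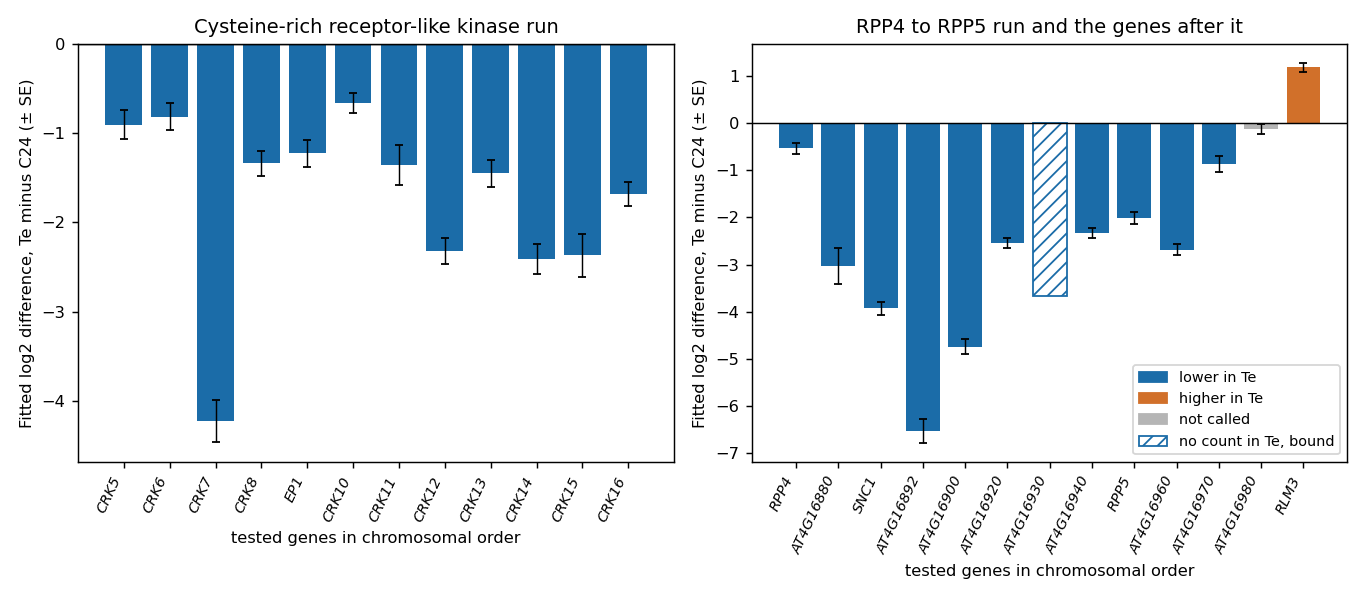
Fitted log2 differences, Te minus C24, in chromosome order, for the run of 12 genes from CRK5 to CRK16 (left) and for the 11 genes from RPP4 to AT4G16970 with the next 2 tested genes (right). Bars are fitted differences and whiskers standard errors, which can be too small for genes with few counts in Te. The hatched bar is a bound for a gene with no count in Te. All genes of both runs lie below zero, AT4G16980 is not called and RLM3 lies above zero.

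Receptors at the cell surface were also mostly lower in Te. Of 35 tested cysteine-rich receptor-like kinases, 26 were lower and 1 was higher (median −1.24), with 2 higher without C24 replicate 1 or Te replicate 2 and 3 higher with the replicate block. Of 61 lectin receptor kinases 37 were lower and 4 higher (median −0.72), with 7 higher under the replicate block, of 43 receptor-like proteins 23 were lower and 6 higher (−0.59), and of 14 wall-associated kinases 8 were lower and 3 higher (−0.83). CRK4, a cysteine-rich kinase, had 200, 142 and 158 CPM in C24 and 0.359, 0.701 and 0.110 CPM in Te, a log2 difference of −8.71 ± 0.32 (SE), with Col-0 at 33.2 CPM between them. The lectin receptor kinase gene AT1G61500 averaged 151 ± 5.67 CPM in C24 and 8.10 ± 0.497 CPM in Te, and the wall-associated kinase gene WAKL4 averaged 14.04 and 0.428 CPM. Members against the direction occurred in each of these families. They made up 2.86% of the cysteine-rich kinases, 6.56% of the lectin receptor kinases, 13.95% of the receptor-like proteins and 21.4% of the wall-associated kinases. Over all genes tested, 16.3% were higher in Te. Only some of these members are named here. CRK30 averaged 2.23 CPM in C24 and 9.92 CPM in Te (2.14 on the log2 scale), WAK4 averaged 6.61 and 18.4 CPM (1.47), and RLP42, which senses fungal polygalacturonases, differed by 0.88.

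Of 29 tested genes of pattern-triggered immunity, the response to general microbial molecules, 23 were lower in Te (79.3%) and 1 was higher, with a median of −0.81. Over all genes tested, 19.4% were lower and 16.3% higher. The receptors that start this response did not pass the test in some cases. FLS2, the flagellin receptor, averaged 15.9 ± 3.35 CPM in C24 and 11.6 ± 3.86 CPM in Te (adjusted p = 0.19, and 0.011 with the replicate block), EFR, the receptor of a bacterial elongation factor, 11.7 ± 0.695 and 9.85 ± 1.80 CPM (adjusted p = 0.23), and PEPR1, the receptor of a plant danger peptide, 21.3 ± 3.75 and 19.5 ± 2.07 CPM (adjusted p = 0.56). The libraries of the lines overlapped for all 3 genes. The genes called lower included the co-receptor gene BKK1 (40.96 and 12.9 CPM, −1.67), the chitin receptor gene CERK1 (−0.81) and BIR1, a brake on cell death (91.6 and 24.2 CPM, −1.92). FRK1, the usual marker of this response, had 5.28, 6.59 and 5.61 CPM in C24 and 0.257, 0.269 and 0.551 CPM in Te (−4.01). RLP23, a receptor of a widespread microbial peptide, averaged 144 and 12.1 CPM (−3.58), and its adaptor kinase SOBIR1 206 and 54.1 CPM (−1.93), but both genes overlap a gene on the other strand, by 6 and 478 bases.

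WRKY transcription factors carry many of these signals to the nucleus. Of the 20 listed for stress, 17 were lower in Te and 1 was higher (median −1.82), against 19.4% and 16.3% of all genes tested. Over the annotated family 30 of 50 were lower (60%) and 4 higher (8%), with a median of −0.94, and 1 or 2 were higher when any 1 library was left out. WRKY25 had 24.1, 25.1 and 22.3 CPM in C24 and 6.88, 7.71 and 7.77 CPM in Te (−1.68 ± 0.11 SE; adjusted p = 3.8e-06), with no overlap. WRKY33, WRKY40 and WRKY53 were lower by −1.73, −2.46 and −3.10, and each overlaps a gene on the other strand, by 26, 51 and 341 bases. The 1 listed gene higher in Te was WRKY17, a repressor of basal defence, at 8.87 ± 2.08 and 12.6 ± 0.765 CPM (SD, n = 3; adjusted p = 0.040). Its call was lost with library totals and over 24 libraries (adjusted p = 0.13 and 0.064). It was also lost without C24 replicate 2, Te replicate 2 or Te replicate 3 (adjusted p = 0.088, 0.11 and 0.10).

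**Figure D4:**
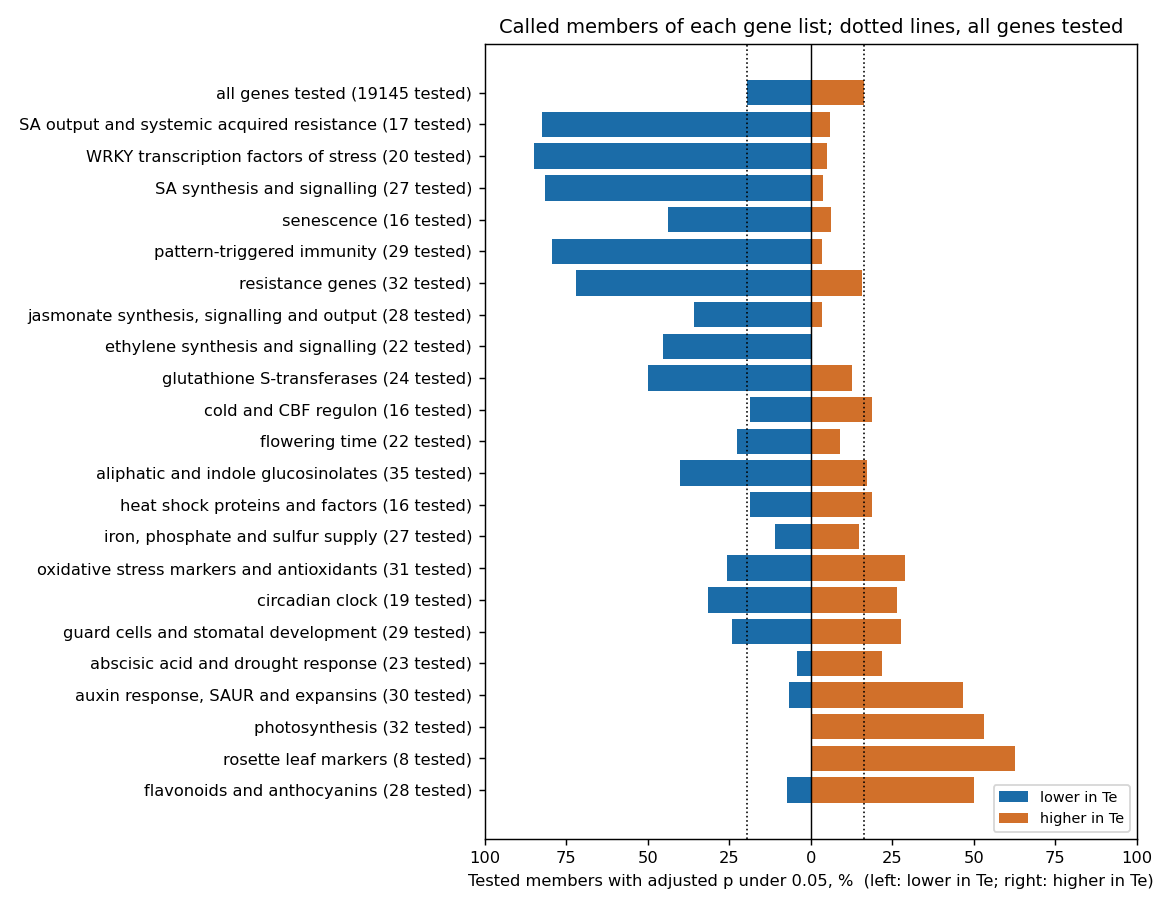
Share of the tested members of each gene list that were called lower (blue, to the left) or higher (orange, to the right) in Te, in percent, for lists with at least 8 tested members, ordered by median difference. Dotted lines give the shares over all 19145 genes tested, 19.4% lower and 16.3% higher. The immune lists reach the furthest left and rosette leaf markers, photosynthesis and flavonoids the furthest right.

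A smaller share of the genes of the other stress hormones was called than of the salicylic acid genes. Over all genes tested, 19.4% were lower and 16.3% higher. Of 22 tested genes of ethylene synthesis and signalling, edgeR's test called 10 lower in Te (45.5%) and 0 higher (median −0.36). DESeq2 also called 10 lower and 0 higher, at an unadjusted p under 0.05 in edgeR 12 were lower and 1 higher, and 1 was called higher without C24 replicate 1 or Te replicate 1 and 2 with the replicate block. ACS2, which makes the ethylene precursor, had 1.44, 1.23 and 1.15 CPM in C24 and 0.154, 0.0539 and 0.110 CPM in Te (−3.49). ERF2 and ERF6, response factors, were lower by −1.71 and −2.89, and EIN3, the central transcription factor of the pathway, by −0.43. EIN2 and the receptor gene ETR1 did not pass the test (adjusted p = 0.50 and 0.060), but ETR1 was called higher with the replicate block, over 12 control libraries and without C24 replicate 1 (adjusted p = 0.010, 0.030 and 0.040). Of 28 tested genes of jasmonate synthesis, signalling and output, 10 were lower (35.7%) and 1 was higher (3.57%), with a median of −0.53. The number lower was 16 without C24 replicate 3 and 6 in the fit over 24 libraries. Without C24 replicate 2 the number higher was 2 and the median −0.13. The tyrosine aminotransferase gene TAT3 averaged 102 ± 48 CPM in C24 and 7.02 ± 2.82 CPM in Te, and the defensin gene PDF1.3 had 2.82, 2.91 and 6.38 CPM against 0.154, 0.108 and 0.0551 CPM. AOC4, an enzyme of jasmonate synthesis, was higher in Te by 0.64. LOX2, VSP2 and MYC2, a synthesis enzyme, a storage protein and the main regulator, overlapped between the lines, and VSP2 ranged from 7.42 to 161 CPM within C24.

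Of 23 tested genes of abscisic acid and drought response, 5 were higher in Te and 1 was lower (median 0.34), against 16.3% higher and 19.4% lower over all genes tested. With the replicate block 9 were higher and 4 lower, and with library totals 3 were higher and 3 lower. The median was 0.18 with library totals, 0.05 without C24 replicate 3 and 0.0044 without Te replicate 1. ATHB7, a drought-induced homeobox factor, had 15.1, 13.6 and 8.68 CPM in C24 and 52.1, 28.2 and 25.1 CPM in Te (1.495 ± 0.32 SE; adjusted p = 0.010), with no overlap. The number called higher was 1 without C24 replicate 3 or Te replicate 1, 2 without Te replicate 2 and 3 without C24 replicate 1, and the number lower was 3 without C24 replicate 1 and 2 without C24 replicate 3. The 1 gene lower in Te was CYP707A3, which breaks abscisic acid down, at 2.82 and 1.42 CPM, and its call was lost in the fit over 12 control libraries (adjusted p = 0.063).

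Ozone enters leaves through stomata, so guard cell genes were read as a group. Of 29 tested genes, 8 were higher in Te (27.6%) and 7 lower (24.1%), against 16.3% and 19.4% of all genes tested. The median was 0.22. With library totals 6 were higher and 8 lower, with a median of 0.07. SLAC1, the anion channel that closes stomata and was first found through ozone sensitivity, had 4.14, 3.58 and 3.298 CPM in C24 and 9.29, 6.63 and 7.71 CPM in Te. Every Te library lay above every C24 library, with a log2 difference of 1.104 ± 0.18 (SE; adjusted p = 0.00094), but the gene overlaps one on the other strand by 125 bases. CPK6, a calcium-dependent kinase that activates SLAC1, went the other way, at 25.9, 24.99 and 22.9 CPM in C24 and 12.2, 8.25 and 9.15 CPM in Te (−1.31 ± 0.15 SE). MYB60, a guard cell factor that favours opening, was higher by 0.61, and the potassium channel gene KAT2 and the differentiation factor gene FAMA were lower by −0.79 and −0.59. Of the 5 guard cell markers, SLAC1, MYB60 and OST1 were called higher, FAMA was called lower, and HT1 did not pass the test at 1.88 and 2.41 CPM, so the markers did not move together. OST1 lost its call with library totals (adjusted p = 0.11) and without C24 replicate 3, Te replicate 1 or Te replicate 2 (adjusted p = 0.079, 0.067 and 0.073).

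The oxidative stress list held stress markers and antioxidant enzymes, and these differed in direction. Of 31 tested members, 9 were higher in Te and 8 lower, with a median of 0.06. The number higher was 4 without C24 replicate 2 or C24 replicate 3 and 5 without Te replicate 3, and the median was −0.10 with library totals. All 8 lower members were lower by at least 2-fold, and no higher member reached 2-fold. ZAT12, a zinc finger factor induced by reactive oxygen, had 4.50, 8.33 and 4.73 CPM in C24 and 1.59, 2.32 and 1.05 CPM in Te (−1.83 ± 0.33 SE; adjusted p = 0.0023), with no overlap. ZAT10, a related factor, was lower by −2.61, NUDT7, a nudix hydrolase, by −1.33, AOX1D, an alternative oxidase, by −4.84 and BCS1, a mitochondrial AAA protein induced by salicylic acid, by −3.33. Among the enzymes, the stromal ascorbate peroxidase gene SAPX was higher by 0.59, GSH2, which completes glutathione, by 0.58 and the superoxide dismutase gene CSD3 by 0.61, though CSD3 overlaps a gene on the other strand. RBOHD, the oxidase that produces reactive oxygen at the cell surface, had 76.5, 68.9 and 66.7 CPM in C24 and 61.3, 54.1 and 56.3 CPM in Te. Its difference was small, −0.30 ± 0.10 (SE; adjusted p = 0.036). The call was lost with DESeq2, with DESeq2's size factors in edgeR and over 24 libraries (adjusted p = 0.054, 0.0502 and 0.22). It was also lost without C24 replicate 1 or 2 or Te replicate 2 or 3 (adjusted p = 0.14, 0.087, 0.12 and 0.11).

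Glutathione S-transferases detoxify reactive compounds, and several are induced by salicylic acid. Of 24 tested genes in the list, 12 were lower in Te (50%) and 3 were higher (12.5%), against 19.4% and 16.3% of all genes tested. The median was −0.36, and the number higher ran from 1 in the fit over 24 libraries to 5 with the replicate block. GSTF2, GSTF6 and GSTF7 averaged 301, 222 and 106 CPM in C24 and 50.7, 37.4 and 10.3 CPM in Te. Reads that these genes share with close copies were not measured. GSTU11 had 131 counts over the C24 libraries and 1 over the Te libraries, a ratio of levels of 135 with a 95% Poisson interval from 23.8 to 5381. GSTU17, a regulator of growth and drought responses, was higher in Te, at 105, 120 and 92.7 CPM in C24 and 181, 222 and 184 CPM in Te (0.88 ± 0.13 SE).

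ARGAH2 (chr4:5646439-5648727, minus strand) encodes an arginase, which splits arginine into ornithine and urea and is known to be induced by jasmonate. It had 0.900, 0.715 and 0.605 CPM in C24 and 617, 1014 and 890 CPM in Te. The means were 0.740 ± 0.149 and 841 ± 203 CPM (SD, n = 3), a log2 difference of 10.14 ± 0.28 (SE; adjusted p = 2.1e-08), and Col-0 had 173 CPM and CT101 956 CPM. The thionin gene AT1G66100, of a family of small antimicrobial peptides, went the other way with 370, 222 and 96.9 CPM in C24 and 0.0513, 0.162 and 0.0551 CPM in Te. The C24 libraries were spread widely but none came near Te, with a difference of −11.23 ± 0.90 (SE).

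Glucosinolates are stored apart from the myrosinases that split them, and specifier proteins set whether nitriles, epithionitriles or isothiocyanates form. Of 35 tested genes of their synthesis and breakdown, 14 were lower in Te (40%) and 6 were higher (17.1%), with a median of −0.15. Over all genes tested 19.4% were lower and 16.3% higher. ESP (chr1:20170715-20173949), the epithiospecifier protein, had 4564, 4753 and 3347 CPM in C24 and 71.6, 92.9 and 65.2 CPM in Te (−5.79 ± 0.22 SE), and Col-0 had 35.7 CPM. ESM1, which favours isothiocyanates, was at 33.3, 24.1 and 33.7 CPM in C24 and at 3.29, 2.53 and 1.98 CPM in Te (−3.54), although Col-0 had 1252 CPM. Both accessions were thus far below Col-0 for ESM1, while C24 alone of the 3 was high for ESP. The nitrile specifier gene NSP1 was lower by −1.57 and NSP4 by −1.25. The myrosinase gene TGG2 had 2292, 1757 and 1950 CPM in C24 and 608, 574 and 570 CPM in Te (−1.78), and TGG1 averaged 3591 and 2032 CPM (−0.82).

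On the synthesis side, MYB29, a regulator of aliphatic glucosinolates, had 35.5, 43.0 and 28.1 CPM in C24 and 166, 164 and 120 CPM in Te (2.08 ± 0.18 SE). FMO GS-OX3, which oxidises their side chains, averaged 58.2 and 212 CPM (1.86), and MAM1, which lengthens these side chains, averaged 706 and 348 CPM (−1.02). MYB34 and MYB51 both regulate indole glucosinolates, and they differed in opposite directions, MYB34 by 1.19 and MYB51 by −1.95. The core enzymes CYP79F1, CYP83A1 and SUR1 did not pass the test, and their libraries overlapped between the lines (574 and 590 CPM, 593 and 679 CPM, 216 and 199 CPM).

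Photosynthesis genes that were called were higher in Te, most of them by small amounts. Of 32 tested genes, 17 were called higher (53.1%) and 0 lower by edgeR's test, against 16.3% and 19.4% of all genes tested. The median was 0.46. DESeq2 called 28 higher and 0 lower, the replicate block 32 higher and 0 lower, and at an unadjusted p under 0.05 in edgeR 27 were higher and 0 lower. The count depended on single libraries, at 29 without C24 replicate 1, 8 without C24 replicate 2, 7 without C24 replicate 3 and 11, 11 and 12 without Te replicates 1, 2 and 3, while the median stayed between 0.31 and 0.60 over all alternatives. LHCA3, a light-harvesting protein of photosystem I, had 3691, 2707 and 2789 CPM in C24 and 7473, 6095 and 6134 CPM in Te, and it was the 1 member that differed by at least 2-fold (1.101 ± 0.16 SE; adjusted p = 0.00058). CA1, a carbonic anhydrase of the chloroplast, had 3987, 2708 and 2896 CPM against 5993, 4697 and 4991 CPM (0.71 ± 0.17 SE). PSBS, which dissipates excess light, was higher by 0.53 and the Calvin cycle gene GAPB by 0.58. RBCS1A, the most abundant Rubisco small subunit gene, had 17649, 13509 and 16738 CPM in C24 and 21723, 20672 and 22477 CPM in Te (0.44 ± 0.15 SE; adjusted p = 0.042). Its adjusted p was 0.075 with library totals and between 0.090 and 0.14 without C24 replicate 2, C24 replicate 3 or any 1 Te replicate. Of the 8 rosette leaf markers, 5 were called higher and 0 lower, with 8 higher and 0 lower by DESeq2 and at an unadjusted p, and 1 to 8 higher over the fits that left out 1 library. The share of all counts held by the 10 top genes was 8.72% to 10.3% in C24 and 10.97% to 11.99% in Te, and its part in these small differences was not tested.

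Flavonoid genes, which make ultraviolet screens and anthocyanin pigments, were more often higher than lower in Te. Of 28 tested genes, 14 were higher (50%) and 2 lower (7.14%), against 16.3% and 19.4% of all genes tested. The median was 0.56, and in the fit over 24 libraries 9 were higher. UGT78D1, which adds rhamnose to flavonols, had 13.02, 9.86 and 11.4 CPM in C24 and 53.3, 56.8 and 56.0 CPM in Te (2.28 ± 0.11 SE; adjusted p = 6.8e-07). PAP1, a MYB factor that switches on anthocyanin synthesis, had 2.16, 4.50 and 0.660 CPM against 19.7, 19.9 and 17.7 CPM (2.95 ± 0.47 SE; adjusted p = 0.0029). The lines did not overlap for either gene. DFR, a late enzyme of the anthocyanin branch, averaged 19.0 ± 5.97 and 38.2 ± 1.5 CPM, UGT78D2, another flavonoid glycosyltransferase, was higher by 0.87, and the acyltransferase gene SCPL10, written scpl10 in the annotation, by 1.12. The factor genes TT8 and MYB12 did not pass the test (adjusted p = 0.19 and 0.56). TTG1, a partner of PAP1 that also acts in trichomes, was lower by −0.37. The other lower gene, FAH1 of the sinapate branch, lost its call over 24 libraries and without C24 replicate 2 (adjusted p = 0.13 and 0.051).

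Auxin response and growth genes were likewise more often higher. Of 30 tested genes, 14 were higher in Te (46.7%) and 2 were lower (6.67%), against 16.3% and 19.4% of all genes tested. The median was 0.45, and 11 of the 14 were higher by at least 2-fold. The number lower was 1 without C24 replicate 1 or 2 or Te replicate 3. XTH17, a wall-loosening enzyme, had 0.420, 0.255 and 0.440 CPM in C24 and 3.13, 2.59 and 3.03 CPM in Te (2.96). The expansin gene EXPA1 had 128, 64.7 and 106 CPM in C24 and 266, 251 and 247 CPM in Te (1.36 ± 0.22 SE), and EXPA10 differed by 1.21. SAUR63, a small auxin-induced gene that promotes growth, had 2.82, 2.40 and 2.64 CPM against 11.4, 7.98 and 8.49 CPM (1.83 ± 0.18 SE), and its family holds close copies. IAA29 and IAA1, repressors induced by auxin, were higher by 2.02 and 1.41, and PRE1, a growth factor downstream of several hormones, by 1.41. The touch-induced wall enzyme gene XTH22 went the other way, at 13.98, 27.4 and 24.1 CPM in C24 and 6.16, 7.01 and 6.78 CPM in Te (−1.72).

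Clock genes differed in both directions, and the hour of harvest is not stated in the labels. Of 19 tested genes, 5 were higher (26.3%) and 6 lower (31.6%) in Te, against 16.3% and 19.4% of all genes tested. The median was 0.12, which ran from −0.11 to 0.27 over the alternatives and was −0.03 with library totals. Those higher included LHY, which encodes a repressor of TOC1, at 63.8, 50.8 and 44.1 CPM in C24 and 146, 125 and 105 CPM in Te (1.25 ± 0.16 SE), RVE8, higher by 0.70, and CDF1, a flowering repressor, higher by 0.67. Those lower included TOC1 at 17.1, 18.8 and 17.97 CPM in C24 and 8.06, 8.57 and 10.03 CPM in Te (−1.01 ± 0.12 SE) and GI, lower by −0.75. None of these 5 genes overlapped between the lines, and they were picked with their values in view. The 2 others called higher were CCA1 (0.49) and LNK2 (0.48) and the 4 others called lower were ELF3, LUX, PRR7 and PRR5 (−0.63, −1.104, −0.39 and −1.17), and each of these 6 lost its call in some of the fits without 1 library. The number lower was 2 without Te replicate 2, and the number higher was 3 without C24 replicate 3, Te replicate 1 or Te replicate 2. Any difference in harvest time between the lines cannot be told apart from a difference between the accessions.

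Of 22 tested flowering time genes, 2 were higher in Te (9.09%) and 5 lower (22.7%), against 16.3% and 19.4% of all genes tested. The median was −0.21, and with the replicate block 4 were higher. The MADS-box genes of the FLC clade, which repress flowering, differed one by one. FLM had 1.26, 1.18 and 0.769 CPM in C24 and 39.7, 36.6 and 36.5 CPM in Te (5.13, edgeR quasi-likelihood adjusted p = 3.2e-08). Col-0 was at 30.1 CPM and CT101 at 0.935 CPM. MAF4 had 4.7985, 6.85 and 7.31 CPM in C24 and 0.154, 0.162 and 0.220 CPM in Te (−5.10). FLC itself differed little, at 39.05, 35.6 and 37.4 CPM in C24 and 55.9, 57.8 and 54.1 CPM in Te (0.58 ± 0.09 SE; adjusted p = 0.00061), and both accessions were well above Col-0 at 0.891 CPM. FRI, the activator of FLC, did not pass the test at 6.48, 7.26 and 8.35 CPM in C24 and 5.65, 5.93 and 6.78 CPM in Te (adjusted p = 0.20), and its libraries overlapped. SOC1, a flowering promoter that FLC represses, had 16.97, 16.6 and 9.56 CPM in C24 and 4.31, 1.51 and 2.42 CPM in Te (−2.38 ± 0.36 SE), and TEM1, a flowering repressor that prolongs the juvenile stage, averaged 39.5 and 10.4 CPM.

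**Figure D5:**
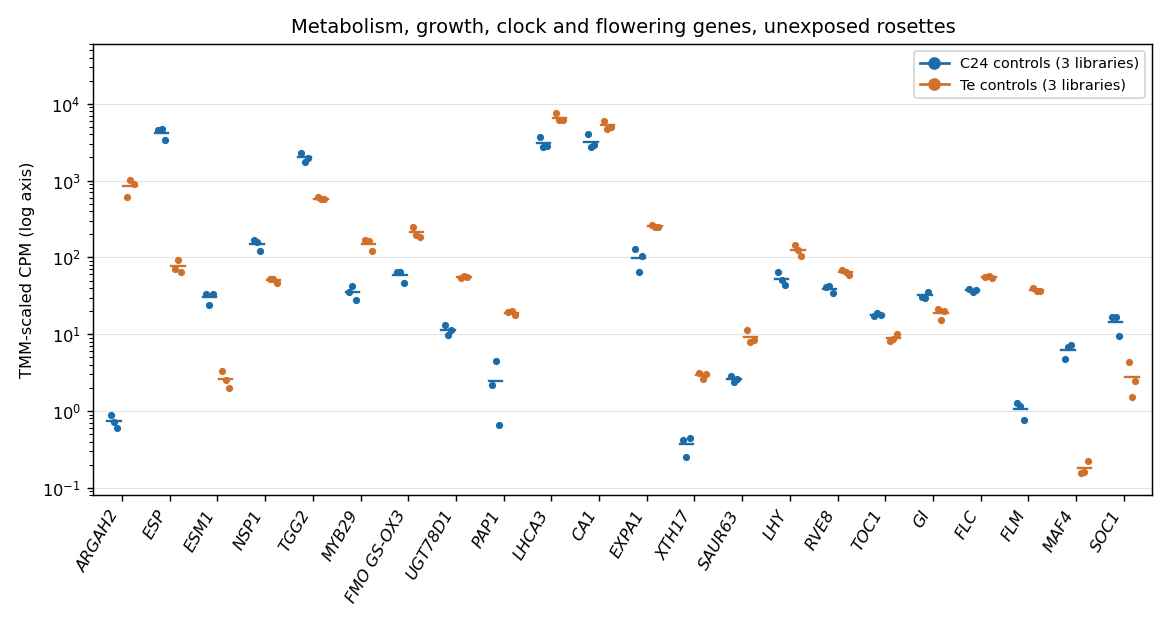
Levels of 22 genes of nitrogen and glucosinolate metabolism, flavonoids, photosynthesis, growth, the clock and flowering in TMM-scaled CPM on a log axis. Points are single libraries, 3 per line, and short bars their means. ARGAH2 and FLM stand far higher in Te, ESP and MAF4 far lower, and LHCA3, CA1 and FLC differ by small steps without overlap.

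Some genes had no count at all in one accession. Among tested genes, 57 had no count in any C24 library, and 56 of them reached at least 1 CPM on average in Te, of which 18 were protein-coding and 33 were annotated as pseudogenes. In the other direction 66 tested genes had no count in Te, and 45 of them reached at least 1 CPM in C24, of which 20 were protein-coding and 24 pseudogenes. Col-0 reached 1 CPM for 18 of the 56 and had no count for 23, and it reached 1 CPM for 7 of the 45 and had no count for 26. AT4G29200, annotated as related to beta-galactosidases, had 84.5, 87.4 and 109 CPM in C24 and none in Te, at least 1758-fold lower in Te, where the bound takes the 3 Te libraries to hold 3 counts in all. AT5G15360, of unknown function, had 35.9, 30.3 and 29.5 CPM in C24 and none in Te, at least 594-fold lower. AT5G49640, also of unknown function, had no count in C24 and 17.55, 17.35 and 18.7 CPM in Te, at least 324-fold higher. AT1G52800, which encodes a 2-oxoglutarate-dependent oxygenase, had 4.44, 3.32 and 2.42 CPM in C24 and none in Te, at least 63.0-fold lower.

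Genes with a few counts in one line and high levels in the other were of many kinds. The F-box gene AT1G27540 had 1 count over the C24 libraries and 210, 216 and 235 CPM in Te, a ratio of 11984 with a 95% Poisson interval from 2150 to 473365, and Col-0 had 17.43 CPM. AT4G20480, annotated as a putative endonuclease or glycosyl hydrolase, averaged 0.134 CPM in C24 and 51.2 CPM in Te (8.56), and NUDT24, a nudix hydrolase, 0.774 and 26.7 CPM (5.10). In the other direction ZW9, a TRAF-like gene, had 28.6, 29.3 and 19.6 CPM in C24 and 0.103, 0.108 and 0.0551 CPM in Te (−8.08), and the RNA-binding protein gene AT5G53700 averaged 24.8 and 0.0705 CPM (−8.32). Of 3910 pseudogenes 190 were tested, and 64 were higher in Te and 81 lower, which is 76.3% called against 35.7% of all genes tested. The filter keeps a locus expressed in 1 line only, and 63 of the 190 had no count in 1 line. All tested genes with no count in 1 line were called, so the 76.3% cannot be read as a trait of pseudogenes. Of 320 ribosomal protein genes 39 were higher and 10 lower, with 14 and 25 under library totals, 63 and 39 under the replicate block and 18 or 19 higher without C24 replicate 2, Te replicate 2 or Te replicate 3. Of 255 pentatricopeptide repeat genes, which act on organelle RNA, 36 were higher and 18 lower, against 16.3% and 19.4% of all genes tested. With library totals 20 were higher and 23 lower, and 8 to 11 were lower with TMM factors without any 1 library other than C24 replicate 1.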

How the data were processed

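Per the labels' protocols, libraries were made with a TruSeq RNA v2 kit from 3 biological replicates of RNA per group. The deposited values are whole-number counts of reads per locus, 1 table per library. Per the submitters' processing notes, FastQC, Bowtie2, SAMtools and HTSeq were used with the TAIR10 build, and versions, order and strand setting are not given in the sources used here. Coordinates are those of the deposited files, and symbols and product names came from a TAIR10.1 RefSeq table, which matched 31912 of 32678 loci.

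The tests were run on the 6 control libraries with edgeR 4.0.16 in R 4.3.3, using filterByExpr (minimum count 10, minimum total 15), TMM factors and the robust quasi-likelihood test, 2-sided, with Benjamini-Hochberg adjustment over 19145 genes and a call at an adjusted p under 0.05. Standard errors are the fitted log2 difference divided by the square root of F. Where 1 line had few counts, this value can fall below counting error alone. It is then not a measure of precision, and the text leaves it out for such genes. The common biological coefficient of variation was 0.131. Where a group had no count, the fold is a bound against 3 counts over its 3 libraries, and with 1 to 3 counts it is a ratio with an exact 95% Poisson interval. The scripts were tested on simulated data.

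Deviations from each line's mean correlated between same-numbered libraries of both lines (r = 0.428, 0.254 and 0.289, against at most 0.0136 for other pairs). Such deviations cancel out over the 3 libraries of a line, which by itself lowers the values of other pairs. The contrast therefore cannot settle whether the numbers pair the samples, and a fit with the replicate block was an alternative. The others were DESeq2 1.42.0, its size factors (RLE), no filter, library totals, the 12 control and all 24 libraries, and leaving out each library.

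Members of 24 gene lists and 30 annotation families were counted, with no set test. The comparison, the members and the lists were chosen with earlier results of these data known. The naming rule took the called genes with the largest differences, the highest levels or no count in 1 line, the leading members of each list and family, those against its direction, the ends of runs and 12 fixed genes. It gave 341 genes. Those printed, and further list members, were picked with their values in view, mostly from calls kept by every alternative, so they are more stable than the rest. Pseudogenes are not named. Python 3.11.15 with pandas 2.3.3, scipy 1.17.1 and matplotlib 3.10.9 made the tables and figures.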

Additional observations from a re-analysis of the deposited data

How the results depend on the processing

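Over 13 alternatives, of 762 named and listed genes, none changed sign where it was called, and 526 stayed on the same side of the threshold in all of them. Of 6834 calls, 4083 were made the same way in every alternative and 6807 with the replicate block, which gave 4416 genes higher and 4933 lower in Te. The number higher was 3256 with RLE factors, 3235 with DESeq2, 3240 with no filter, 3507 in the fit over 12 control libraries and 2550 over 24 libraries, against 3112, and the number lower ran from 3564 to 4026 over these 5, against 3722. With library totals alone, 1964 genes were higher and 5350 lower, and the median difference of all genes moved by −0.16. Leaving out 1 library gave 2372 to 3132 genes higher and 2908 to 3434 lower, with 843 to 1012 and 1562 to 1754 by at least 2-fold. Among lists, the number higher ran from 7 to 32 for photosynthesis, from 1 to 9 for abscisic acid and from 1 to 8 for rosette leaf markers. Depth limits genes of few counts, for which the intervals above are wide, and an absent call does not show equal levels.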

Other observations

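Of 16 tested senescence genes, 7 were lower and 1 was higher, against 19.4% and 16.3% of all genes tested, with a median of −1.17, and 2 were higher without C24 replicate 3. SAG13, a reductase gene induced in ageing and infected leaves, had 94.9, 198 and 108 CPM in C24 and 1.85, 6.25 and 4.35 CPM in Te. The transcription factor genes ORE1 and NAC019 were lower by −2.41 and −2.86 on the log2 scale, and the lines overlapped for none of these 3 genes. Of 16 tested heat shock genes, 3 were higher and 3 lower (18.75% each). HSFA3, a heat stress factor, was lower by −1.19 and the chaperone gene HSP70 higher by 1.15, and 6 of the list were called lower without Te replicate 2. The HSP70 call was lost in the fit over 24 libraries (adjusted p = 0.067). BIP2, a chaperone of the endoplasmic reticulum that helps PR proteins to be secreted, had 306, 388 and 378 CPM in C24 and 97.6, 144 and 120 CPM in Te.

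Of 27 tested genes of iron, phosphate and sulfur supply, 4 were higher in Te (14.8%) and 3 lower (11.1%). Over all genes tested the shares were 16.3% and 19.4%. LSU1, a marker of sulfur shortage, had 6.36, 11.2 and 6.21 CPM in C24 and 20.2, 33.6 and 27.4 CPM in Te. PHO1, which loads phosphate into the xylem, had 17.8, 16.9 and 20.6 CPM against 41.5, 31.7 and 31.2 CPM. The cold-regulated thylakoid gene COR314-TM2 was higher by 0.75. Of 16 tested cold genes 3 were higher and 3 lower (18.75% each). The number higher was 1 without C24 replicate 3 or Te replicate 1, and the number lower was 1 without Te replicate 1 or 2. Of 56 tested NAC factors, 6 were higher (10.7%) and 18 lower (32.1%).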
